A study of Mus musculus with 8 samples.

Results

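The anoctamins (Ano1 to Ano10, also called TMEM16 proteins) are a family of membrane proteins that share one fold and do different work. Ano1 and Ano2 are chloride channels that open when calcium rises inside the cell. Most other members are phospholipid scramblases, which move lipids from one leaflet of a membrane to the other when calcium rises, or act at contacts between membranes. In many somatosensory neurons chloride is kept high inside the cell, so that an opening chloride channel depolarises the membrane, and Ano1 is known as a heat-sensing channel of nociceptors. The members were taken by family name, 10 of the 55414 genes listed in the counts, and the family was chosen by the higher level of Ano2 in AD1 OE and by the nociceptor role of Ano1. The values of Ano2 in that contrast are therefore given as a description, with no test.

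Transcripts were counted by bulk RNA-seq of whole dorsal root ganglia (DRG) from mouse embryos at E18.5, in 4 libraries of each of 2 groups. AD1 OE embryos were AdvillinCre/+;Rosa26Dach1/+ and control embryos were Advillin+/+;Rosa26Dach1/+. Both groups thus carried the conditional Dach1 allele at Rosa26, which is silent behind a stop cassette until Cre removes it, and only AD1 OE carried Cre, under the Advillin promoter that is active in sensory neurons. The labels give the cells as neurons and glia, and they do not say whether each library came from a separate embryo, so that p-values measure the spread between these libraries.

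The libraries held 22339059 to 44025625 counts assigned to genes. Dach1 was at 91.5 to 102 CPM (the usual counts-per-megacount scale, relative to the scaled library size) in AD1 OE and 30.2 to 33.7 CPM in control, and Avil, whose locus carries the Cre, at 450 to 478 against 840 to 919 CPM. In every library both lay on the side that its label gives. From Xist and 4 Y-linked genes, 3 AD1 OE libraries and 1 control library were male, so that sex was unevenly spread over the groups. Values within each sex were computed for the members only, not for the genes of the other lists. The neuron markers Tubb3, Prph and Snap25 were at 278 CPM or more in every library. Summed levels of 8 nociceptor markers lay at 2339 to 2601 CPM in AD1 OE and 2996 to 3363 CPM in control, with 4 of the 8 called lower (Scn10a, Calca, Tac1 and Mrgprd). Scn11a (0.21) and P2rx3 (0.16) were not called and had log2 fold changes of the other sign, with every AD1 OE library above control. Without Scn10a, the most abundant of the list in control, the nociceptor sums overlapped, at 1603 to 1744 CPM in AD1 OE and 1713 to 1886 CPM in control. Of 8 general sensory neuron markers only Avil was called (lower), with sums of 6968 to 7556 CPM in AD1 OE and 7769 to 8012 CPM in control. Without Avil these sums overlapped, at 6489 to 7090 CPM and 6892 to 7093 CPM. Of 8 mechanoreceptor and proprioceptor markers Etv1 and Shox2 were called lower. Ntrk3 had a log2 fold change of 0.30 and was not called (edgeR, adjusted p = 0.0171), with every AD1 OE library above control. Nefh, at -0.24, was not called either (edgeR, adjusted p = 0.0116), with every AD1 OE library below control. The sums of that list were 1267 to 1372 CPM in AD1 OE and 1367 to 1481 CPM in control. Sums of 8 markers each (7 for red blood cells) of Schwann and satellite glia, mural cells, fibroblasts, endothelium, skeletal muscle, cartilage and bone, macrophages, spinal cord and red blood cells overlapped between the groups, with 0 called genes by edgeR.

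The members are related by descent, and their coding sequences still share short runs of bases. The stretches below hold the longest run shared by the channels Ano1 and Ano2, read from GENCODE M21 transcripts (GRCm38) on the sense strand. They are shown because the counts of these 2 genes can be told apart only where the sequences differ. Capitals mark the shared run, with 9 bases on either side in lower case.
Ano1, coding bases 1792 to 1830: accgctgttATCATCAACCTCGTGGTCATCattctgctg
Ano2, coding bases 1744 to 1782: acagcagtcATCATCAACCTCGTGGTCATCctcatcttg
The longest shared run of Ano1 and Ano2 was 21 bases, as was that of Ano6 and Ano8. Over all 45 pairs of members it was 11 to 21 bases, with a median of 14. No 2 members shared a run of 50 bases anywhere in their annotated transcripts. Outside the family, Ano6 and Ano10 shared such runs with many genes and Ano3, Ano4 and Ano8 with few, whereas Ano1, Ano2, Ano5, Ano7 and Ano9 shared them with none. The genes also lie apart, on 8 chromosomes, with Ano1, Ano5 and Ano9 on chromosome 7 and Ano4 on chromosome 10, which also holds Avil.

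All 10 members passed the filter on low counts. By the edgeR fit over all 17721 tested genes, with calls for adjusted p below 0.005 and log2 fold changes beyond 0.25 in either direction, 0 of the 9 members other than Ano2 were called. Of these 9, 3 had an unadjusted p under 0.05 (Ano3, Ano4 and Ano5). The share of all tested genes under that limit was not counted, so that this count cannot be read as a result about the family. Over all tested genes 2.57% were called, 0.784% higher and 1.78% lower in AD1 OE. By DESeq2 at the same thresholds 1 of the 9, Ano3, was called, beside 4.01% of its tested genes. The median log2 fold change of the 10 members was 0.00, as it was over all tested genes.

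**Figure D1:**
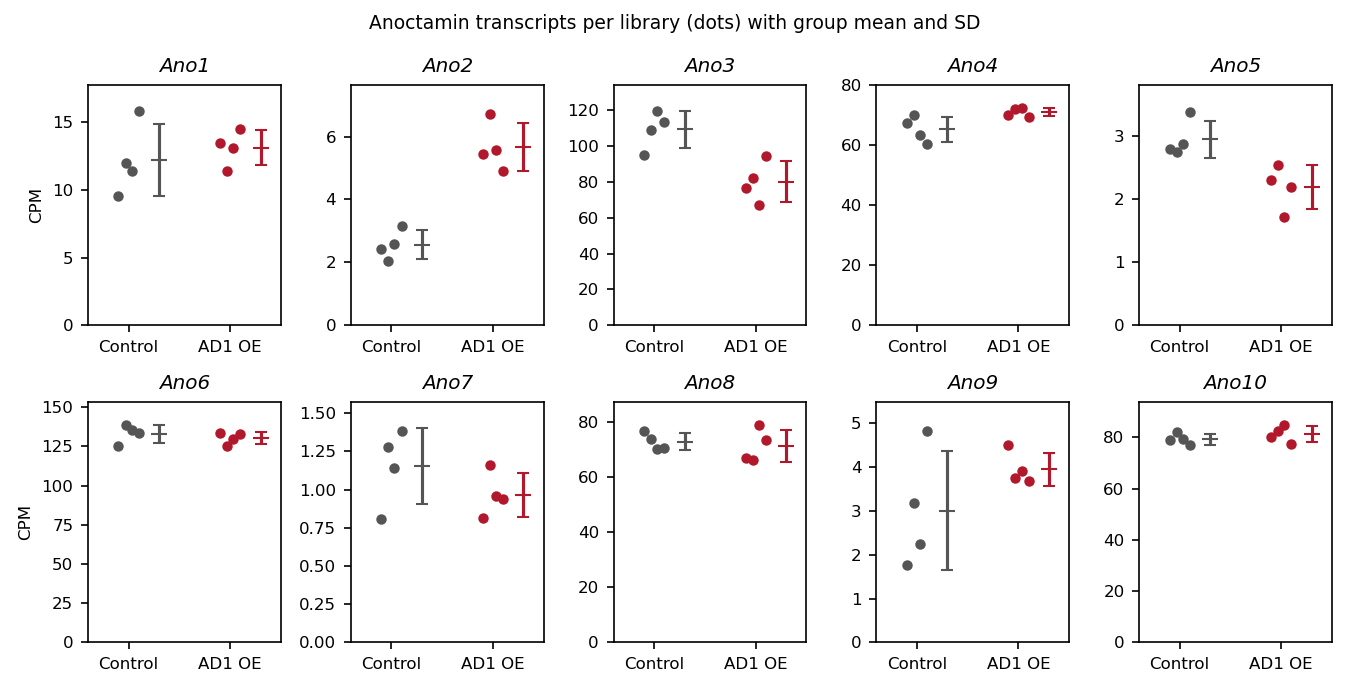
CPM of each anoctamin in the 4 control (grey) and 4 AD1 OE (red) libraries, one dot per library, with the group mean and SD beside the dots; every vertical axis starts at 0. The groups do not overlap for Ano2, which is above control, and for Ano3 and Ano5, which are below it.

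Among the chloride channels, Ano2 (ENSMUSG00000038115), the subunit of the calcium-activated chloride current of olfactory neurons and photoreceptor terminals, stood higher in AD1 OE. The 4 AD1 OE libraries were at 5.45, 6.73, 5.58 and 4.89 CPM, and the 4 control libraries at 2.43, 2.06, 2.59 and 3.16 CPM. The lowest AD1 OE library lay above the highest control library. The means were 5.66 ± 0.770 and 2.56 ± 0.460 CPM (SD, n = 4), a log2 fold change of 1.13 ± 0.15 (SE), or 2.19-fold. These are small numbers of reads, 136 to 241 counts per AD1 OE library and 54 to 112 per control library. In bulk ganglia, a change in the number of cells that hold a transcript and a change in the transcript per cell cannot be told apart. Within females the log2 difference was 1.24, from 1 AD1 OE and 3 control libraries, and within males 0.85, from 3 and 1.

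Ano1 (ENSMUSG00000031075), the channel of nociceptors, also found in smooth muscle and glands, did not pass the test. Its levels were 13.5, 11.4, 13.1 and 14.5 CPM in AD1 OE and 9.58, 12.0, 11.4 and 15.9 CPM in control. The control libraries spanned the whole AD1 OE range. The log2 fold change was 0.09 ± 0.13, with a 95% interval of -0.19 to 0.38 (edgeR, adjusted p = 0.766), so that differences in either direction within that interval remain possible. The sign was not the same in both sexes, at 0.25 within females and -0.27 within males, and the highest control level was that of the single male control library.

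The ratio of Ano2 to Ano1, each as CPM per kilobase of exon, restates the difference in Ano2 on which the choice of the family rests. It was 0.469, 0.684, 0.495 and 0.391 in AD1 OE and 0.294, 0.198, 0.264 and 0.231 in control. Ano1 thus had the higher level per length in every library of both groups.

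Ano3 (ENSMUSG00000074968) had lower levels in AD1 OE and was not called by edgeR. Ano3 is known in nociceptors as a partner of the sodium-activated potassium channel Slack and is mutated in a form of dystonia. AD1 OE libraries were at 76.5, 82.5, 67.1 and 94.6 CPM and control libraries at 95.4, 109, 120 and 113 CPM. The highest AD1 OE library and the lowest control library were less than 1 CPM apart. The means were 80.2 ± 11.5 and 109 ± 10.3 CPM, which puts AD1 OE at 73.2% of control, and the log2 fold change was -0.45 ± 0.09 (95% interval -0.65 to -0.25). The adjusted p of 0.0122 by edgeR missed the limit of 0.005. DESeq2 gave -0.45 with an adjusted p of 6.53e-05, past it. Leaving out AD1 OE replicate 4, the highest of its group, gave -0.53 and 0.00347 by edgeR, while the adjusted p over all alternatives ran from 2.16e-07 to 0.0454. Ano3 was called in 4 of the 18 alternatives, which include 1 of the 8 fits without a single library. The difference was -0.69 within females and -0.42 within males. The nociceptor marker sum was below control in the same 4 libraries, though the ranges overlapped without Scn10a. Its part in the Ano3 values was not tested. Only 61 exon bases of Ano3 (0.845%) are shared with another gene, Muc15 on the opposite strand.

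Ano4, a scramblase and cation channel relative of Ano3 found mainly in neurons, showed a small difference that did not pass the test. AD1 OE libraries lay at 70.1, 71.8, 72.1 and 69.3 CPM and control libraries at 67.2, 69.8, 63.2 and 60.2 CPM. The ranges overlapped by 1 library of control, and the AD1 OE libraries were the closer together (SD 1.35 against 4.25). The log2 fold change was 0.12 ± 0.05 (edgeR, adjusted p = 0.189), with 0.11 within females and 0.23 within males.

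Ano5, a scramblase of skeletal muscle and bone whose loss causes muscular dystrophy, was low, with 45 to 120 counts per library. It stood at 2.31, 2.54, 1.72 and 2.19 CPM in AD1 OE and at 2.79, 2.74, 2.87 and 3.39 CPM in control. The groups did not overlap, but the difference of -0.43 ± 0.14 on the log2 scale did not pass the test (95% interval -0.75 to -0.12; edgeR, adjusted p = 0.117). Non-overlapping groups were found for 13.0% of all tested genes, and for 3 of the 10 members, Ano2, Ano3 and Ano5. The family was chosen for the higher level of Ano2 in AD1 OE, so that the place of Ano2 in this count was fixed by that choice. Skeletal muscle markers varied between libraries, and their part in the Ano5 values was not tested. Their sum was highest, at 528 CPM, in AD1 OE replicate 3, the library with the lowest Ano5, and ranged over 95.5 to 528 CPM in AD1 OE and 120 to 353 CPM in control. Within females the Ano5 difference was -0.70 and within males -0.53.

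Ano6, the widespread scramblase that exposes phosphatidylserine on activated platelets, had the highest CPM of the family. It ranged over 125 to 133 CPM in AD1 OE and 125 to 138 CPM in control, nearly the same span. The log2 fold change was -0.03 ± 0.04, with a 95% interval of -0.12 to 0.05 (edgeR, adjusted p = 0.720). Narrow intervals around 0 were also found for Ano8, a tether between endoplasmic reticulum and plasma membrane, and Ano10, mutated in a recessive ataxia. Ano8 was at 66.0 to 78.6 CPM and 70.0 to 76.5 CPM, a log2 fold change of -0.03 ± 0.06 with an interval of -0.16 to 0.09 (edgeR, adjusted p = 0.838). Ano10 was at 77.4 to 84.9 CPM and 76.9 to 82.0 CPM, a change of 0.04 ± 0.04 with an interval of -0.05 to 0.12 (edgeR, adjusted p = 0.696). For these 3 members the intervals lie inside the fold limit of 0.25 in both directions. The differences within females and within males were -0.04 and -0.04 for Ano6 and 0.08 and 0.06 for Ano10. Ano8 had opposite signs, at 0.10 within females and -0.04 within males. Ano6 shares 1.744% and 0.994% of its exon bases with 2 genes on the opposite strand and Ano8 shares 1.168% with Dda1, and the sources used here do not say whether reads were counted by strand.

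Ano7 and Ano9, known from prostate and from epithelia, were among the lowest and the least precise. Ano7 had 18 to 49 counts per library, at 0.814 to 1.16 CPM in AD1 OE and 0.810 to 1.38 CPM in control. Its log2 fold change was -0.30 ± 0.20, with an interval of -0.74 to 0.15 (edgeR, adjusted p = 0.488). Leaving out single libraries moved it between -0.42 (without control replicate 1) and -0.19 (without control replicate 4). The Ano7 difference was -0.17 within females and -0.51 within males. Ano9 was at 4.50, 3.74, 3.90 and 3.67 CPM in AD1 OE and at 1.75, 3.18, 2.24 and 4.83 CPM in control. The control libraries held both the lowest and the highest level, and the fitted value of 0.37 ± 0.24 did not pass the test (edgeR, adjusted p = 0.465). Control replicate 4, the single male control library, was the highest. Without it the value was 0.71 with an adjusted p of 0.0582, and within males the sign was turned (-0.28, against 0.71 within females).

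**Figure D2:**
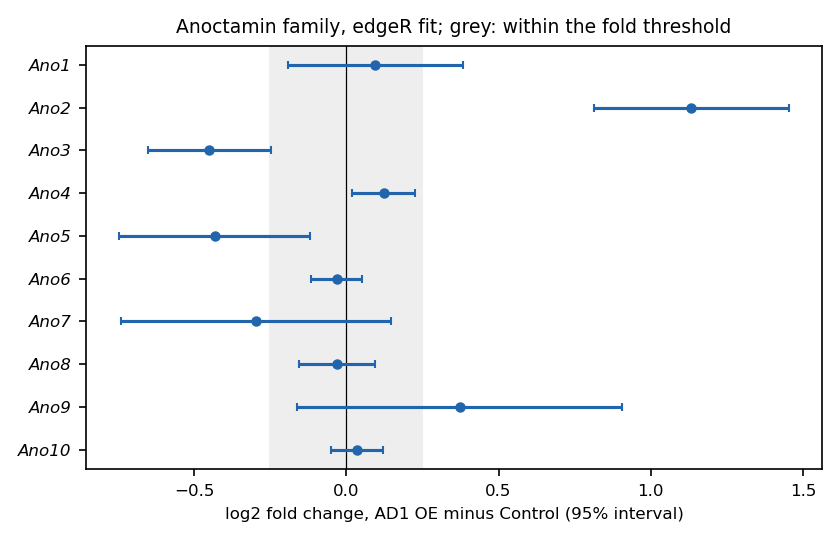
Log2 fold change of AD1 OE over control for the 10 anoctamins from the edgeR fit, with 95% intervals as bars; the grey band is the range inside the fold limit of 0.25. Ano2 lies at 1.13, Ano3 at -0.45 and Ano5 at -0.43, and the intervals of Ano6, Ano8 and Ano10 stay inside the band. The bar of Ano2 is a description and no test, because the family was chosen for the higher level of Ano2.

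Levels of different genes can be set side by side only per length, and were computed as CPM per kilobase of exon. The order in control was Ano3 (15.2 ± 1.43), Ano10 (13.4 ± 0.361), Ano6 (10.9 ± 0.463), Ano8 (10.6 ± 0.447), Ano4 (8.96 ± 0.585), Ano1 (1.96 ± 0.424), Ano9 (0.680 ± 0.307), Ano2 (0.476 ± 0.0855), Ano5 (0.377 ± 0.0383) and Ano7 (0.289 ± 0.0626). In this order 4 of the 9 pairs of neighbours had overlapping control ranges, namely Ano3 with Ano10, Ano6 with Ano8, Ano9 with Ano2, and Ano2 with Ano5. The members fell into an upper and a lower set of 5, with a gap between Ano4 and Ano1. The highest control mean was 52.4 times the lowest.

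The upper 5 were the same 5 genes when the longest transcript or the coding length was used as the length, although the order within them depended on it. By exon length Ano3 was first, by longest transcript Ano10 and by coding length Ano6. In AD1 OE, Ano3 was second (11.1 ± 1.59) after Ano10 (13.8 ± 0.549), and Ano2 (1.05 ± 0.143) stood before Ano9 (0.896 ± 0.0854). Ano2 was 0.757% of the family's control sum and 1.75% of its AD1 OE sum. The sum over the family was 59.1 to 61.9 in AD1 OE and 60.1 to 64.4 in control, and these ranges overlapped.

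**Figure D3:**
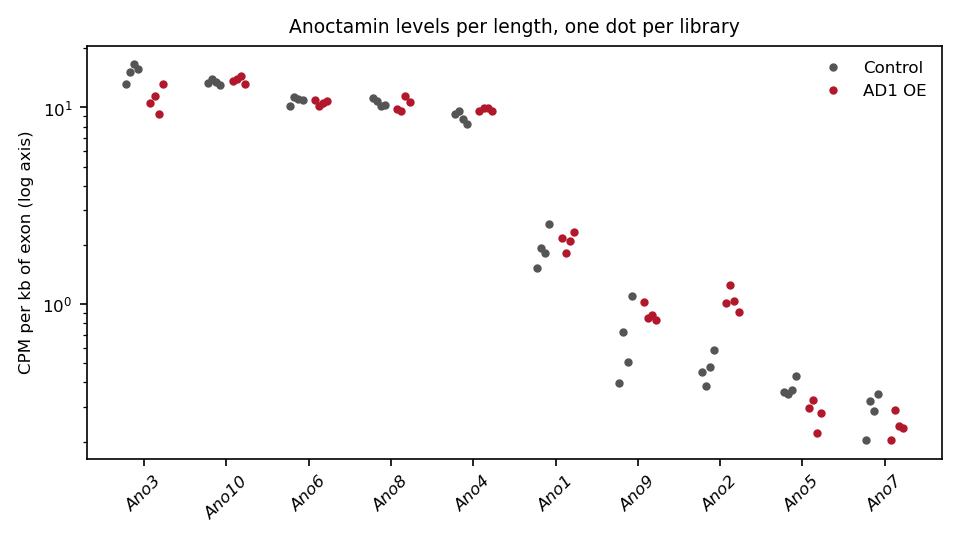
CPM per kilobase of exon (log axis) of the 10 anoctamins in their control order, one dot per library, control in grey and AD1 OE in red. The upper 5 members lie at 8.28 or above in every library and the lower 5 at 2.54 or below.

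Genes related to the anoctamins by function were read from 3 lists. Of 34 other chloride channel genes and subunits (bestrophins, Clca, Clcn and Lrrc8 genes, Ttyh, Clic and others), 23 were tested and 0 were called by edgeR, beside 2.57% of all tested genes. Another 4 had an unadjusted p under 0.05, a limit with no share counted over all tested genes. The median log2 fold change was -0.03. DESeq2 also called 0 of them. The 3 with the highest CPM were Lrrc8b, a subunit of the volume-regulated anion channel, Clcn3, an endosomal chloride-proton exchanger, and Ttyh1. Their log2 fold changes were -0.14 ± 0.04, -0.00 ± 0.04 and -0.05 ± 0.05 (edgeR, adjusted p = 0.0838, 0.976 and 0.668). The endosomal exchanger Clcn5, chosen after its values were seen, had an adjusted p of 0.00465 by edgeR and missed the fold limit at -0.23 ± 0.04. The summed level of the list was 2022 to 2092 CPM in AD1 OE and 2113 to 2172 CPM in control. These ranges do not overlap. Abundant genes weigh most in such a sum, and no share of non-overlapping sums was counted beside it. By single gene the groups did not overlap for 3 of the 23 tested (Clcn5, Lrrc8b and Clic1), beside 13.0% of all tested genes. That count is close to that share. Clic1, also chosen after its values were seen, was at -0.15 ± 0.04 (edgeR, adjusted p = 0.0369). The nociceptor and sensory neuron sums moved the same way as the list's sum, though they overlapped without Scn10a and without Avil. Their part in the list's sum was not tested.

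Of 30 other scramblase, flippase and TMC/TMEM63 genes, the last being the closest structural relatives of the anoctamins, 26 were tested and 1 was called, in the lower direction, beside 1.78% of all tested genes called lower. This was Tmem63a, a stretch-activated cation channel, at 18.6, 18.1, 21.0 and 20.7 CPM in AD1 OE and at 26.6, 28.0, 27.5 and 29.1 CPM in control. Every AD1 OE library lay below every control library, and the log2 fold change was -0.51 ± 0.06 (edgeR, adjusted p = 3.56e-04). A further 5 genes had an unadjusted p under 0.05, again with no share counted over all tested genes. The median log2 fold change was 0.01. The 3 highest by CPM were the flippase Atp8a1 (-0.11 ± 0.05), the flippase subunit Tmem30a (-0.02 ± 0.05) and the flippase Atp11a (0.05 ± 0.05), none of which passed the test.

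The last list held 28 known or possible partner genes of anoctamins. They cover receptors, enzymes and sensors of the calcium signal, chloride cotransporters, Slack and its relative Slick, and junction proteins. Whether each acts with an anoctamin in these ganglia was not tested. Of the 28 genes, 27 were tested and 1 was called, lower in AD1 OE, beside the same 1.78%. A single call in a list of this size is close to that share. Kcnt2, which encodes the Slick channel, a relative of Slack, was at 10.1, 11.6, 9.91 and 11.7 CPM in AD1 OE and 14.9, 16.0, 19.1 and 18.8 CPM in control. The groups did not overlap, and the log2 fold change was -0.67 ± 0.09 (edgeR, adjusted p = 9.34e-04). Without AD1 OE replicate 1 the value was -0.64 and the adjusted p 0.00528, just outside the limit. Another 8 genes had an unadjusted p under 0.05, a count that cannot be judged because the share over all tested genes was not counted. The median log2 fold change was -0.09. Among the highest by CPM were Calm2 and Calm3, which encode the calcium sensor calmodulin, at -0.03 ± 0.05 and -0.12 ± 0.05 (edgeR, adjusted p = 0.802 and 0.176). Kcnt1, which encodes Slack and was chosen after its values were seen, ranged over 373 to 452 CPM in AD1 OE and 406 to 499 CPM in control (-0.16 ± 0.07; edgeR, adjusted p = 0.269). Calm2 and Calm3 encode the same protein, and their counts could be uncertain where reads fit both. The nociceptor marker sums given above moved in the direction of Kcnt2, though they overlapped without Scn10a, and their part in it was not tested.

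**Figure D4:**
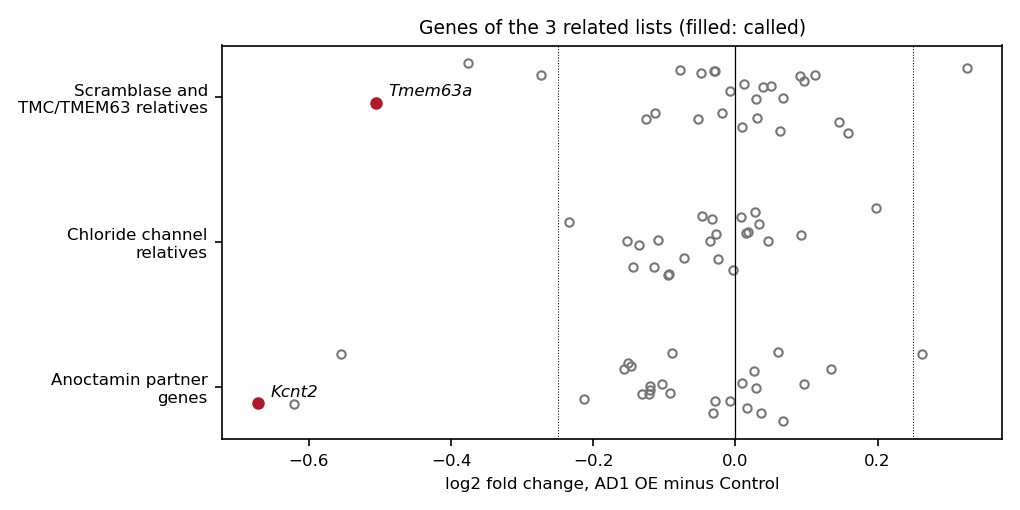
Log2 fold change of AD1 OE over control for each tested gene of the chloride channel, scramblase with TMC/TMEM63, and partner lists, with dotted lines at the fold limit of 0.25. Filled points are the called genes, Tmem63a at -0.51 and Kcnt2 at -0.67; vertical spread within a list carries no value.

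Among the 15495 tested genes whose mean reached 1 CPM, the log2 CPM profile over the 8 libraries most like that of Ano2 was Sel1l3 (Pearson r = 0.988), then Sgpl1 (0.987), Arfgap3 (0.975), Afap1l1 (0.969) and Mtmr12 (0.968). For Ano3 they included Rabgap1l (0.992), 9330182L06Rik (0.983), Luzp2 (0.981) and the sodium channel gene Scn7a (0.976). For Ano1 they were Sphk1 (0.970), Arfgap2 (0.963), Plekhh1 (0.936), Dock6 (0.921) and Kdm6b (0.915). These are descriptions over 8 libraries of 2 groups, which share the group difference and the library scaling, and were picked as the highest of many. By Spearman's rank correlation the leading genes were others for Ano2 (Zfp90) and Ano3 (Rapgef6 and Kcnt2), while Plekhh1 and Sphk1 were among the first 5 for Ano1 by both measures.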

How the data were processed

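The authors made stranded Illumina mRNA libraries from DRG RNA, aligned reads to GRCm39 with STAR 2.7.8a, counted them per Ensembl gene with featureCounts 2.0.1 and deposited raw counts for each library, neither normalized nor filtered (0 lines named no gene). Whether counting used the strand, and how reads with several positions were treated, is not given in the sources used here. Groups and replicate numbers came from the labels. Gene names, lengths and sequences came from GENCODE M21 on GRCm38, an older build, so no coordinates are given. All 10 members had an ID, and Pacc1 was matched as Tmem206.

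Counts were analysed with edgeR 4.0.16 in R 4.3.3 (filterByExpr, TMM, quasi-likelihood test with group as the only term, Benjamini-Hochberg adjustment over 17721 genes). Calls needed adjusted p below 0.005 and log2 fold changes beyond 0.25 in either direction, the study's thresholds. CPM used TMM-scaled library sizes, and log2 CPM for correlations a prior count of 2. Intervals cover counting error and library spread together. Reads carried no molecular identifiers. Replicates correlated at 0.988 to 0.995, and their counts differed by more than sampling noise (chi-square per degree of freedom 4.02 to 11.1). The biological coefficient of variation was 8.22%. Tested on simulated counts of 17563 genes, 199 of them changed, the fit recovered 79.8% of genes changed by 1 and 63.2% of genes changed by 0.6 on the log2 scale, with 0 false calls among 143.

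The members, lists and rules were chosen with earlier results of these data known. Named genes are all members, every called gene and the 3 highest by mean CPM in each list, the 5 most correlated with Ano1, Ano2 and Ano3, and Dach1 and Avil. Alternatives were DESeq2 1.42.0, limma-voom (limma 3.58.1), other scalings, filters and thresholds, a sex score, a replicate block, other lengths and leaving out each library. Values within each sex and marker sums without Avil or Scn10a were added after seeing the data. Single items that these rules name are not reported here.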

Additional observations from a re-analysis of the deposited data

How the results depend on the processing

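Over 18 alternative settings, Ano3, Ano4, Ano5, Ano6, Ano7, Ano9 and Ano10 kept their sign. The settings that changed only the thresholds kept the main fit, so that no sign could turn in them. The number of members past the thresholds, with Ano2 included although its choice fixed it, was 2 in place of 1, the other being Ano3, by DESeq2, with no expression filter, and at an adjusted p under 0.05 with no fold limit, and 1 to 2 when single libraries were left out (2 without AD1 OE replicate 4). With sex as a covariate the sign turned for Ano1 (-0.047) and Ano8 (0.039), and leaving out single libraries moved Ano8 between -0.072 and 0.0047 (turned without AD1 OE replicate 2), Ano1 between 0.0028 and 0.25, Ano7 between -0.42 and -0.19 and Ano9 between 0.20 and 0.71. The number of called partner genes was 2 with no filter (Kcnt2 and Slc12a5, the latter chosen after its values were seen), 0 at an absolute log2 fold change over 1, and 0 to 1 leaving out single libraries (0 without AD1 OE replicate 1). That of chloride channel genes was 2 at an adjusted p under 0.05 with no fold limit (Clcn5 and Clic1) and 0 to 1 leaving out single libraries (Clcn5 without Control replicate 1). At an absolute log2 fold change over 1, 0 of the scramblase list and 1 of Dach1 and Avil (Dach1) were called. With the longest transcript or the coding length, 5 of the 10 members kept their place in the order of levels. The causes of these changes were not tested. Replicate numbers did not pair the libraries (correlations of deviations -0.01, -0.05, -0.04 and 0.31, with 1 of 4 AD1 OE libraries closest to its own number), and with the replicate block 1 member was called and Ano3 was at -0.45 (edgeR, adjusted p = 0.0116). Ano2, Ano5, Ano7 and Ano9 rest on the fewest reads, at most 241 counts per library, which limits their precision.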
